A study of Mus musculus with 10 samples.

Results

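Transcript levels of 10 genes of transforming growth factor beta (TGF-beta) signalling were followed in sorted mouse regulatory T (Treg) cells, CD4 T cells that express Foxp3 and hold immune responses in check. The genes were Tgfbr1 and Tgfbr2, Smad2, Smad3, Smad4 and Smad7, Ski and Skil, and Id2 and Id3. They were chosen by name, and each was represented by the 1 probe set of the array whose platform annotation gave that symbol and no other, such as 17420016 for Id3 and 17280310 for Id2. All 10 were measured, among 22180 genes in all, and none was removed for a low signal. The study held 5 samples of LKB1-deficient Treg cells, titled as carrying a deletion of Stk11, and 5 of wild type (WT) Treg cells, each on its own array. Stk11 encodes LKB1, a kinase upstream of AMPK. All samples, WT included, were sorted from mixed bone marrow chimeras, in which donor cells of more than 1 kind repopulate a host, and were lysed without culture. The labels name no Cre driver, allele, strain, age, sex or number of animals, and separate animals within a group are not stated. The p-values thus measure only how far these samples spread, and that spread may be technical.

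In TGF-beta signalling the ligand binds the type II receptor Tgfbr2, which phosphorylates the type I receptor Tgfbr1. Tgfbr1 then phosphorylates Smad2 and Smad3, which join Smad4 and act on genes in the nucleus. Smad7 blocks the receptor, and Ski and SnoN, the product of Skil, bind the Smads and repress their targets. Id proteins are helix-loop-helix proteins without a DNA-binding region that pair with E proteins such as E2A and HEB and keep them off DNA, and the Id genes are classical targets of TGF-beta and bone morphogenetic protein (BMP) signalling. In T cells TGF-beta is known for inducing Foxp3 and the integrin chain CD103, and mouse Treg cells need Id2 and Id3 to keep from turning into follicular-type cells.

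Values are log2 signals as deposited. Stk11 itself had log2 signals of 6.57, 6.01, 6.05, 6.71 and 6.78 on LKB1-deficient arrays 1 to 5, against 6.61 to 6.95 on WT arrays. Stk11 was not called (-0.36, SE 0.16, adjusted p = 0.335), with 2 of the 5 LKB1-deficient arrays inside the WT range, and differed by -0.75 (adjusted p = 0.0178) without LKB1-deficient arrays 1, 4 and 5. Those held its 3 highest signals in the group, so leaving them out had to make the difference more negative. Whether its probe set covers the deleted part is not stated, and it checks the labels only in part. On LKB1-deficient arrays 1, 4 and 5 some markers of the labelled cell type were below all WT arrays. Foxp3 had a log2 signal of 11.10 to 11.50 on LKB1-deficient arrays 2 to 5 and of 9.86 on array 1, against 10.95 to 11.19 on WT arrays. Il2ra was at 10.27, 11.23, 11.33, 10.80 and 10.81 on LKB1-deficient arrays 1 to 5, against 11.01 to 11.09 on WT arrays. The mean over 10 genes of T cell identity was 10.82, 10.80 and 10.75 on LKB1-deficient arrays 1, 4 and 5. It was 10.93 and 10.99 on arrays 2 and 3 and 10.95 to 10.99 on WT arrays. Of these 10 genes 2 had a positive difference, where 11270 of all 22180 genes did. Some LKB1-deficient arrays also stood apart in transcripts of other cells. The mean over 11 genes of B and plasma cells was 7.37, 7.09 and 7.30 on LKB1-deficient arrays 1, 4 and 5 with 5.86 and 5.92 for arrays 2 and 3, and it ranged between 5.67 and 5.96 on WT arrays. The mean over 16 genes of monocytes, macrophages and dendritic cells was 9.51 and 9.61 on LKB1-deficient arrays 4 and 5 and 6.74 to 7.33 on arrays 1 to 3, against 6.71 to 7.09 on WT arrays. The values come from whole samples, so fewer cells of a type and less RNA per cell cannot be told apart.

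Of the 10 genes, 0 passed an adjusted p of 0.05 in limma over all 22180 genes, where 236 genes (1.06%) did. At an unadjusted p under 0.05 there were 2, Id3 and Tgfbr2, where 14% of all genes reached that level. The median difference of the 10 genes, LKB1-deficient minus WT, was 0.018 on the log2 scale, and that of all genes was 0.0034. Id3 had the largest difference of the 10, and its adjusted p of 0.05004 lay just outside the threshold. It was also the only 1 of the 10 whose groups did not overlap. Among all genes 4.71% did not overlap, 3.71% with LKB1-deficient arrays lower and 0.996% with them higher.

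**Figure D1:**
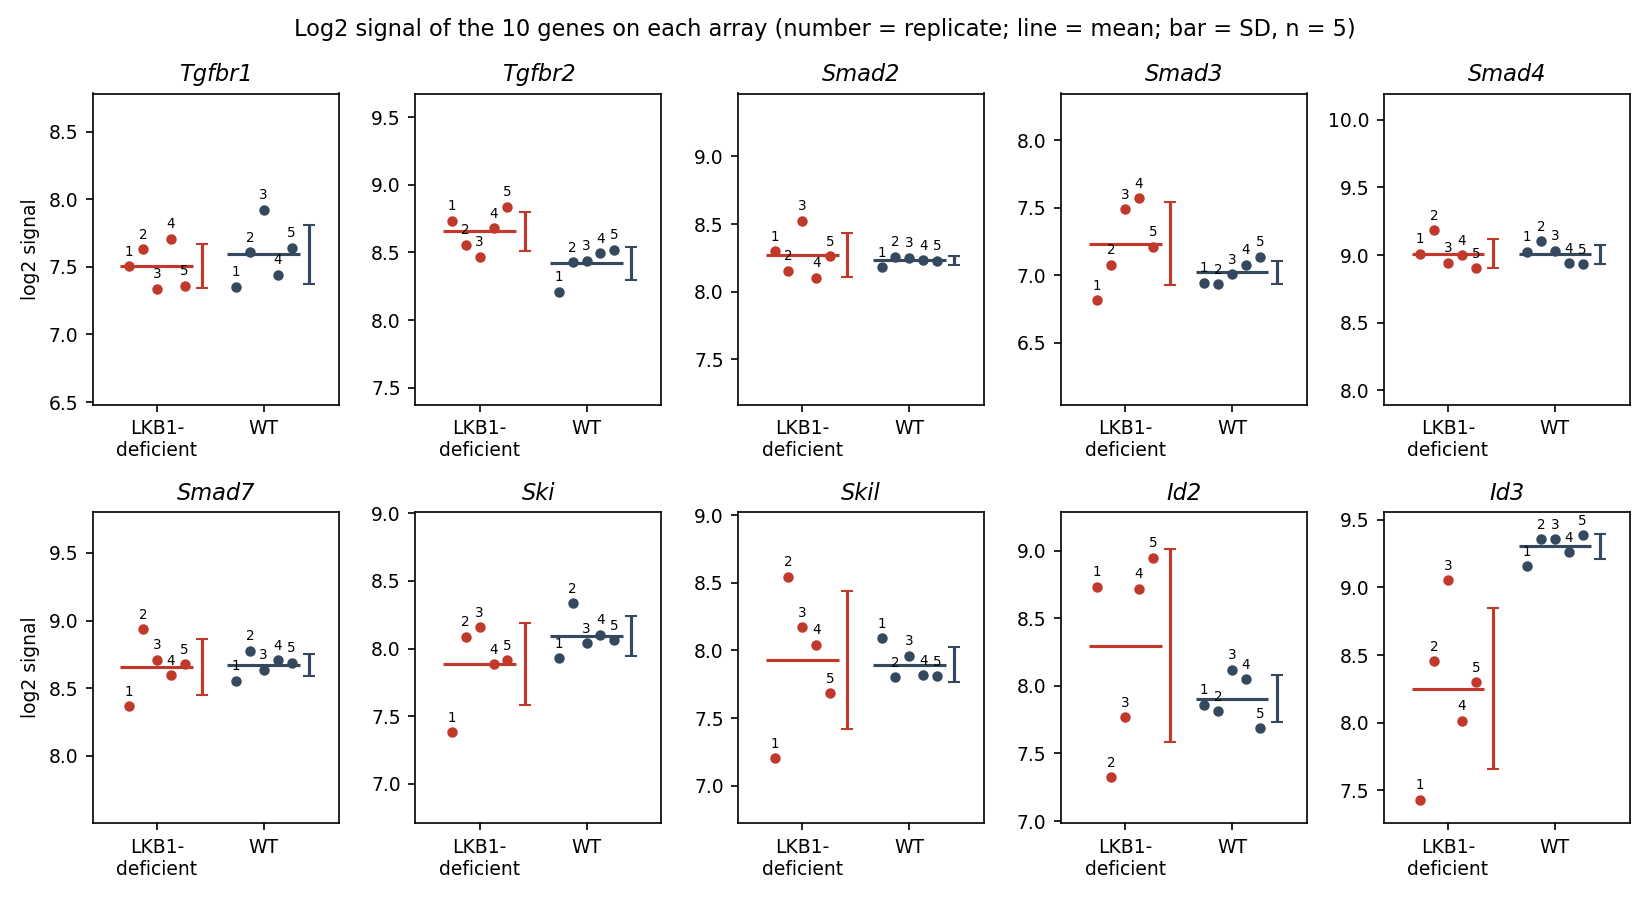
Log2 signal of each of the 10 genes (vertical axes, all spanning the same number of log2 units) on the 5 LKB1-deficient and 5 WT arrays. Numbers beside the points are replicates, lines are means and bars are SD. Id3 is the gene in which all 5 LKB1-deficient points lie below all WT points. In Id2 LKB1-deficient arrays 1, 4 and 5 lie above all WT points, and in Tgfbr2 arrays 1, 2, 4 and 5 do.

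The receptors and the receptor-activated Smads differed little. Tgfbr2 had signals of 8.73, 8.56, 8.47, 8.68 and 8.84 on LKB1-deficient arrays 1 to 5, against 8.21, 8.43, 8.44, 8.49 and 8.52 on WT arrays 1 to 5. On 4 of the 5 LKB1-deficient arrays it was above all WT arrays. The means were 8.66 ± 0.15 in LKB1-deficient and 8.42 ± 0.12 in WT cells (SD, n = 5 each), a difference of 0.24 (SE 0.098, 95% confidence interval 0.024 to 0.45). Over all genes it did not pass (adjusted p = 0.298). The Tgfbr2 difference was 0.094 without LKB1-deficient arrays 1, 4 and 5 and 0.091 with the marker list means as covariates, and those were the 3 highest arrays of the group, so leaving them out had to lower it. Tgfbr1, its signalling partner, was at 7.5, 7.63, 7.34, 7.71 and 7.36 on LKB1-deficient arrays, against 7.35, 7.61, 7.92, 7.44 and 7.64 on WT arrays. The groups overlapped widely, and the difference was -0.084 (95% confidence interval -0.35 to 0.18) at an adjusted p of 0.811.

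Smad3 was at 6.82, 7.08, 7.49, 7.57 and 7.21 on LKB1-deficient arrays 1 to 5, against 6.94, 6.93, 7.01, 7.08 and 7.14 on WT arrays 1 to 5. LKB1-deficient arrays 3, 4 and 5 were above all WT arrays and array 1 was below them, and the difference of 0.21 (95% confidence interval -0.080 to 0.51) did not pass (adjusted p = 0.526). Without array 1, the lowest of its group, the Smad3 difference was 0.32 (adjusted p = 0.193). Smad2, the other Smad that the receptor phosphorylates, was at 8.30, 8.15, 8.53, 8.10 and 8.26 on LKB1-deficient arrays, against 8.18, 8.26, 8.25, 8.23 and 8.23 on WT arrays. The WT values kept within a narrow band, and the LKB1-deficient values fell on both sides of it, 3 above and 2 below. Its difference was 0.038 (95% confidence interval -0.16 to 0.24, adjusted p = 0.901). Smad4, the shared partner of all signalling Smads, was at 9.01, 9.19, 8.94, 9.0 and 8.90 on LKB1-deficient arrays, against 9.02, 9.10, 9.03, 8.94 and 8.93 on WT arrays. Its groups had nearly the same mean, 9.01 ± 0.11 in LKB1-deficient and 9.01 ± 0.071 in WT cells (SD, n = 5 each). The interval of the Smad4 difference, -0.18 to 0.19 on the log2 scale, was the narrowest of the 10. Without LKB1-deficient arrays 1, 4 and 5 the differences were 0.11 for Smad2, 0.060 for Smad4 and 0.26 for Smad3, and their adjusted p stayed over 0.05.

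**Figure D2:**
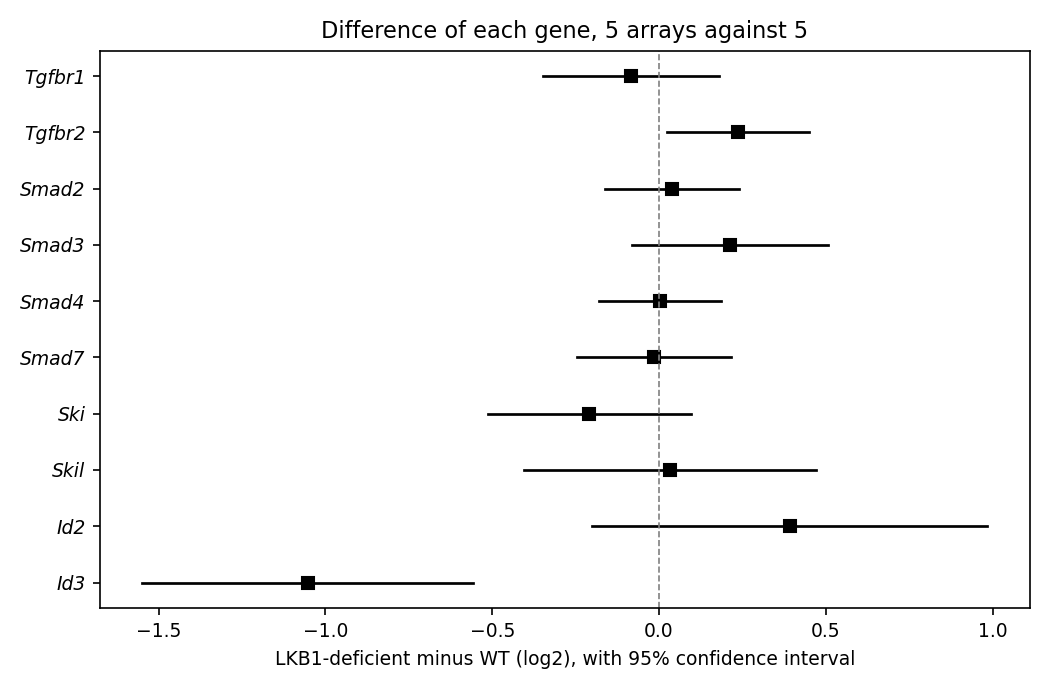
Log2 difference of each of the 10 genes, LKB1-deficient minus WT (squares), with its 95% confidence interval (lines). The interval of Id3 lies wholly below 0, that of Tgfbr2 wholly above it, and the other 8 intervals span 0; these intervals are not adjusted for the number of genes tested.

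The inhibitors of the pathway overlapped between the groups. Smad7, which TGF-beta induces and which blocks its receptor, was at 8.37, 8.94, 8.71, 8.60 and 8.68 on LKB1-deficient arrays 1 to 5, against 8.55, 8.78, 8.64, 8.70 and 8.69 on WT arrays 1 to 5. The difference was -0.014 (95% confidence interval -0.25 to 0.22, adjusted p = 0.970), and without LKB1-deficient array 1 it turned to 0.058. It was 0.15 without arrays 1, 4 and 5. Ski was at 7.38, 8.09, 8.16, 7.89 and 7.91 on LKB1-deficient arrays, against 7.93, 8.34, 8.04, 8.10 and 8.06 on WT arrays. LKB1-deficient arrays 1, 4 and 5 were below all WT arrays, and the difference of -0.21 (95% confidence interval -0.51 to 0.097) did not pass (adjusted p = 0.555). Without those 3 arrays it was 0.028, so that its sign rested on them. Skil was at 7.20, 8.54, 8.17, 8.04 and 7.68 on LKB1-deficient arrays, against 8.09, 7.80, 7.96, 7.82 and 7.81 on WT arrays. LKB1-deficient arrays 2 and 3 were above and arrays 1 and 5 below all WT arrays, and the difference of 0.033 (95% confidence interval -0.40 to 0.47) did not pass (adjusted p = 0.963). For Skil LKB1-deficient arrays 2 and 3 were the highest of their group. Without arrays 1, 4 and 5 the difference was 0.46 (adjusted p = 0.145), a shift upward that leaving them out had to give. Arrays 2 and 3 lay within the WT range in the B and plasma and the monocyte, macrophage and dendritic list means. In the mean over 8 genes of conventional CD4 T cells they were above it, at 8.68 and 8.67 against 8.45 to 8.57. In the CD8 T cell list they were above it too, at 6.97 and 6.88 against 6.38 to 6.71.

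The windows of 250 bases before the annotated starts of both Id genes are shown because Id3 and Id2 differed in how they varied among the arrays. Sequences are those of RefSeq on build GRCm38.p6, and 6 of the 10 genes had an entry there. Capitals mark matches on either strand to CANNTG, the E-box bound by E proteins, to CAGAC, a Smad box, and to TGACG, the core of the cyclic AMP response element. The Id3 window lies at chr4:136143572-136143821 on the plus strand and that of Id2 at chr12:25096093-25096342 on the minus strand.
Id3: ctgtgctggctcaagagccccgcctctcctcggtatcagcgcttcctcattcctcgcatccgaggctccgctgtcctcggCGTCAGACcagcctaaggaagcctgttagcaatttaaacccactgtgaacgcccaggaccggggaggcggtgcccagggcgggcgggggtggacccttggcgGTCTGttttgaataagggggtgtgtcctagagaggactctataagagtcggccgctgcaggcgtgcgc
Id2: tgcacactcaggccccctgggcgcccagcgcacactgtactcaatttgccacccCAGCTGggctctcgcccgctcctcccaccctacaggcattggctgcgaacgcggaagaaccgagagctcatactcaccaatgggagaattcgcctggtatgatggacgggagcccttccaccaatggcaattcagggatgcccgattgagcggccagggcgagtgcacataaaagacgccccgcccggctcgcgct
The Id3 window held 2 Smad boxes and 1 CRE core, the core overlapping the first Smad box, and 0 E-boxes. That of Id2 held 1 E-box, 0 Smad boxes and 0 CRE cores. Of all 32851 promoter windows of this length, 66.2% held an E-box, 42.2% a Smad box and 17.8% the CRE core, so each of these matches is common. A match is a description of letters and no site of binding.

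Id3 was lower on every LKB1-deficient array than on any WT array. The signals were 7.43, 8.45, 9.05, 8.02 and 8.30 on LKB1-deficient arrays 1 to 5, against 9.16, 9.36, 9.36, 9.26 and 9.39 on WT arrays 1 to 5. Array 1 was the lowest and array 3, at 9.05, came within a small distance of the lowest WT array. The group means were 8.25 ± 0.60 in LKB1-deficient and 9.30 ± 0.094 in WT cells (SD, n = 5 each). That is a 2.08-fold lower mean, with a 95% confidence interval of 1.47-fold to 2.93-fold, from a log2 difference of -1.05 (SE 0.23). In limma the adjusted p was 0.05004, and Id3 ranked 242 by p among all genes, with 236 called. The call turned with single arrays. Without LKB1-deficient array 1, the lowest, the difference was -0.85 and the adjusted p 0.0288. Without array 3, the highest, it was -1.25 (adjusted p = 0.0153), and leaving that array out had to enlarge the difference. In the other 8 fits that each left out 1 array the adjusted p was over 0.05, up to 0.133.

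The size of the Id3 difference moved with the 3 arrays highest in the B and plasma list. LKB1-deficient arrays 1, 4 and 5 had the 3 lowest Id3 signals. Without them the difference was -0.55 (SE 0.15, adjusted p = 0.129), and with the means of the 2 marker lists as covariates it was -0.56 (SE 0.18, adjusted p = 0.158). Leaving out the 3 lowest arrays had to shrink the difference, and on the 2 arrays left, at 8.45 and 9.05, Id3 was still below all WT arrays. The part of other cells in the Id3 difference was not tested beyond these values. The running codes in the sample descriptions put replicates 1 to 3 of both groups in a first set and replicates 4 and 5 in a second. Within the first set the difference was -0.98 (adjusted p = 0.396), and within the second it was -1.17 (adjusted p = 0.0170). The only LKB1-deficient arrays of the second set, 4 and 5, were both high in the 2 marker lists. In that set genotype and transcripts of other cells cannot be told apart.

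Id2, whose product shares E proteins as partners with that of Id3 and which is also known from natural killer, innate lymphoid and dendritic cells, had a positive difference that did not pass. Its signals were 8.73, 7.32, 7.77, 8.72 and 8.95 on LKB1-deficient arrays 1 to 5, against 7.86, 7.81, 8.12, 8.05 and 7.69 on WT arrays 1 to 5. LKB1-deficient arrays 1, 4 and 5 were above all WT arrays, array 2 was below all of them and array 3 was among them. With means of 8.30 ± 0.71 in LKB1-deficient and 7.91 ± 0.18 in WT cells (SD, n = 5 each), the difference was 0.39 (95% confidence interval -0.20 to 0.98) and did not pass (adjusted p = 0.569). Its sign depended on the 3 arrays. Without LKB1-deficient arrays 1, 4 and 5 the Id2 difference was -0.36 (adjusted p = 0.332), and with the marker list means as covariates it was -0.38 (adjusted p = 0.230). Id2 was highest on these 3 arrays, so leaving them out had to lower it. Within the first set of codes the difference was 0.010 (adjusted p = 0.995), and within the second it was 0.97 (adjusted p = 0.0580). The second set has the limit given above for Id3, as arrays 4 and 5 are its only LKB1-deficient arrays.

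**Figure D3:**
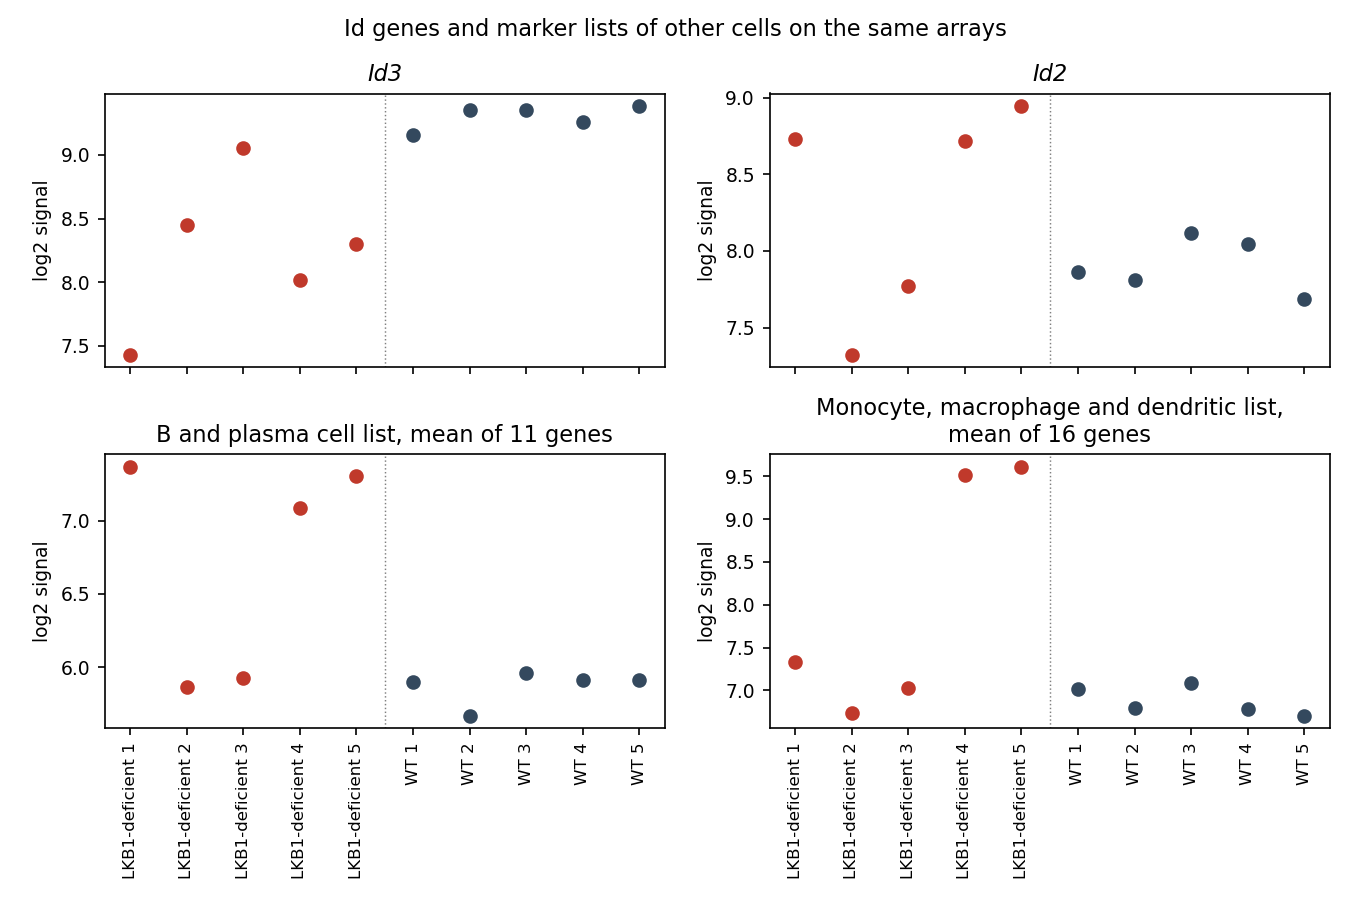
Log2 signal of Id3 and Id2 (upper panels) and mean log2 signal of the B and plasma cell list and of the monocyte, macrophage and dendritic list (lower panels) on the 10 arrays named on the horizontal axis. In Id3 all 5 LKB1-deficient arrays were below all WT arrays, with arrays 1, 4 and 5 the lowest. LKB1-deficient arrays 1, 4 and 5 were high in Id2 and in the B cell list, and arrays 4 and 5 were high in the macrophage list.

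Every gene of the B and plasma list (11 of 11 measured) and of the monocyte, macrophage and dendritic list (16 of 16) had a positive difference. In limma 0 of them passed, with 6 B and plasma genes and 7 of the other list at an unadjusted p under 0.05. In the natural killer cell list, whose cells depend on Id2, 9 of 10 had a positive difference. There Klrd1, a receptor chain named here after its value was seen, rose, at 6.42, 5.02, 5.64, 5.63 and 6.41 on LKB1-deficient arrays 1 to 5, against 3.77 to 4.53 on WT arrays (adjusted p = 0.0170), and 1 gene fell. Of the 10 genes of the list 6 were at an unadjusted p under 0.05. Without arrays 1, 4 and 5 Klrd1 differed by 1.04 (adjusted p = 0.0558). The mean of the list was 5.77, 5.18 and 5.37 on LKB1-deficient arrays 1, 4 and 5 with 4.91 and 5.17 for arrays 2 and 3, and it ranged between 4.76 and 4.97 on WT arrays. The gene of the list that fell was Nkg7, a granule protein of cytotoxic cells and its highest member, at -0.84. Without arrays 1, 4 and 5 the Nkg7 difference was -1.17 (adjusted p = 0.00686). The Treg list was at 9.30, 10.36 and 10.28 on LKB1-deficient arrays 1, 4 and 5, below all WT arrays (10.37 to 10.50). On arrays 2 and 3 it was at 10.63 and 10.64, above all WT arrays. Array 1, the lowest in the Treg list, was also lowest in Id3. Over all arrays 9 of 10 genes of the Treg list had a negative difference. Of these 1 fell, Izumo1r, the folate receptor 4 of Treg cells, named after its value was seen. Izumo1r was below all WT arrays on all 5 LKB1-deficient arrays (-0.70, adjusted p = 0.0209), and without arrays 1, 4 and 5 it differed by -0.47 (adjusted p = 0.0545). Conventional CD4 T cell genes had their highest mean on LKB1-deficient array 1, at 9.54, with 8.67 to 8.74 on LKB1-deficient arrays 2 to 5, against 8.45 to 8.57 on WT arrays. Of 8 such genes 6 were at an unadjusted p under 0.05, and 1, the phosphodiesterase Pde3b, also named after its value was seen, rose (1.53, adjusted p = 0.00893). Pde3b was above all WT arrays on all 5 LKB1-deficient arrays, and without arrays 1, 4 and 5 it differed by 1.04 (adjusted p = 0.00767). Detection calls are no part of the deposited table, so which markers were at background on an array cannot be said.

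**Figure D4:**
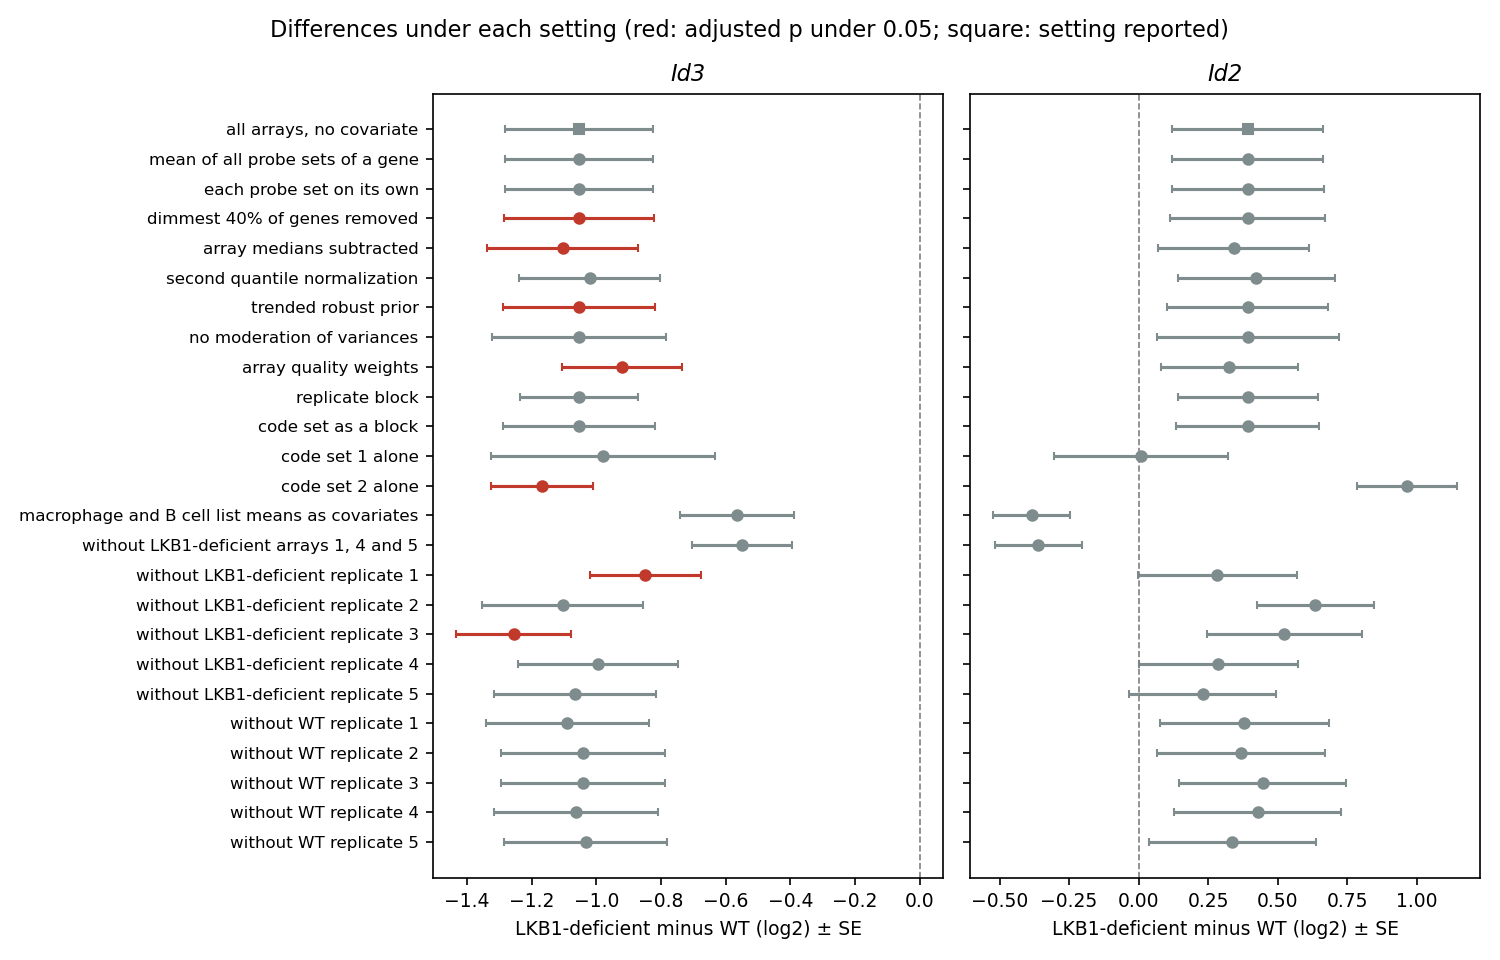
Log2 difference of Id3 (left) and Id2 (right), LKB1-deficient minus WT, with its SE, under the setting reported (squares) and 24 alternatives (circles), with red for an adjusted p under 0.05. Id3 is below 0 in every setting and passes in 7 of the 24, and Id2 changes sign in the 2 settings that remove or adjust for the arrays high in markers of other cells.

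The LKB1-deficient arrays varied more among themselves. The SD of the LKB1-deficient arrays was larger than that of the WT arrays in 9 of the 10 genes, all but Tgfbr1, and in 68.8% of all genes. The ratio of the SDs, LKB1-deficient over WT, was 6.34 for Id3, 5.46 for Smad2, 4.03 for Id2 and 3.96 for Skil. LKB1-deficient array 1 was the lowest of its group in Smad3, Smad7, Ski, Skil and Id3, and it was also the array with the lowest Foxp3.

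Among all genes, the 3 whose profiles over the 10 arrays lay nearest to that of Id3 were Adam19, Myc and Ntn4, with root mean square distances of 0.21, 0.26 and 0.27 log2 units after each profile was centred. Adam19, a membrane metalloprotease, was at 6.96, 7.97, 8.48, 8.16 and 7.76 on LKB1-deficient arrays 1 to 5, against 8.70 to 8.91 on WT arrays. It did not pass (-0.90, adjusted p = 0.0775). Myc, a transcription factor of growth, fell, with a log2 difference of -0.76 (adjusted p = 0.0398). Ntn4, a secreted netrin, differed by -0.76 (adjusted p = 0.197). For all 3, as for Id3, LKB1-deficient array 1 was the lowest. Without arrays 1, 4 and 5 the Adam19 difference was -0.55 (adjusted p = 0.102) and that of Ntn4 -0.22 (adjusted p = 0.566).

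Ligands of the family and the proteins that release TGF-beta from its latent form were read from a list of 22 measured genes. Of these 1 fell, 0 rose and the other 21 were not called, and their median difference was 0.023, with 2 at an unadjusted p under 0.05. The gene that fell was Bmp7, a BMP ligand, at 6.18, 5.80, 5.79, 6.13 and 5.94 on LKB1-deficient arrays 1 to 5, against 6.92, 6.51, 7.20, 6.93 and 6.48 on WT arrays 1 to 5. It was 1.79-fold lower (-0.84, SE 0.15, adjusted p = 0.0235), below all WT arrays on all 5 LKB1-deficient arrays. The Bmp7 difference was -1.01 (adjusted p = 0.0303) without LKB1-deficient arrays 1, 4 and 5, and the call was lost without WT array 1 (adjusted p = 0.0710), 3 (0.0625) or 4 (0.0706). Tgfb1, the main ligand of T cells, averaged 9.88 in LKB1-deficient and 9.97 in WT cells, a difference of -0.087 (adjusted p = 0.782). Itgb8, the integrin chain with which Treg cells activate latent TGF-beta, was at 6.0, 7.52, 7.19, 7.37 and 7.28 on LKB1-deficient arrays 1 to 5, against 7.61 to 8.09 on WT arrays. All 5 LKB1-deficient arrays were below all WT arrays, and the difference of -0.75 (SE 0.24) did not pass (adjusted p = 0.174). It was -0.48 (adjusted p = 0.0510) without LKB1-deficient array 1, which was the lowest by far, and -0.46 (adjusted p = 0.179) without arrays 1, 4 and 5. Lrrc32, whose product GARP holds latent TGF-beta on the Treg surface, differed by -0.15 (95% confidence interval -0.89 to 0.60, adjusted p = 0.899). Its sign rested on LKB1-deficient array 1, without which it was 0.25 (adjusted p = 0.383). The other 2 of the 4 genes with the smallest p were Tgfb3, a further ligand, at 0.17, and Thbs1, thrombospondin 1, at 0.17, the last at 0.060 without arrays 1, 4 and 5.

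Of 13 other receptors of the family, 0 passed and the median difference was -0.047, with 2 at an unadjusted p under 0.05. The smallest p belonged to Tgfbr3, the co-receptor betaglycan, at 0.44 (SE 0.13, adjusted p = 0.142). It was at 7.28, 7.24, 6.95, 7.07 and 6.90 on LKB1-deficient arrays 1 to 5, against 6.44, 7.01, 6.52, 6.81 and 6.45 on WT arrays 1 to 5, and 3 LKB1-deficient arrays were above all WT arrays. Acvrl1, a type I receptor best known from endothelium, differed by 0.31 (adjusted p = 0.313), and by 0.074 (adjusted p = 0.837) without LKB1-deficient arrays 1, 4 and 5, its highest. Acvr2a, a type II receptor of activins, differed by -0.20 (adjusted p = 0.384), and Bmpr2, the type II BMP receptor, by -0.34 (adjusted p = 0.454). Among 30 other Smads and Smad regulators 0 passed and 1 was at an unadjusted p under 0.05, with a median of -0.047. Those with the smallest p were Strap (-0.22), which binds receptors and Smad7, Ldlrad4 (-0.29), which keeps Smad2 and Smad3 from the receptor, Sptbn1 (-0.18), a spectrin that binds Smads, and Zeb1 (0.21), a transcription factor. Their adjusted p lay between 0.331 and 0.433.

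Genes known to be induced by TGF-beta in T cells showed 1 increase, 1 decrease and 13 that did not pass among 15 measured, with a median of -0.072 and 5 at an unadjusted p under 0.05. Itgae, encoding CD103, fell. Its signals were 6.99, 7.13, 6.72, 6.88 and 6.53 on LKB1-deficient arrays 1 to 5, against 8.18, 7.87, 8.62, 8.28 and 7.74 on WT arrays 1 to 5, so the groups lay well apart. The Itgae difference was -1.29 (SE 0.17, adjusted p = 0.00882), and it passed in all 10 fits that left out 1 array. Runx3, a transcription factor that acts with Smads at several T cell genes, rose. It was at 7.32, 7.67, 7.76, 7.59 and 7.31 on LKB1-deficient arrays, against 7.04, 6.71, 6.84, 6.82 and 7.0 on WT arrays (0.65, SE 0.11, adjusted p = 0.0235). The Runx3 call was lost without LKB1-deficient array 4 (adjusted p = 0.0583) or without WT array 2, 3 or 4 (up to 0.0820). The CD8 T cell list, of 2 genes, was also higher, with a mean of 6.88 to 7.18 on LKB1-deficient arrays and 6.38 to 6.71 on WT arrays. Of its genes Cd8a, named after its value was seen, rose (0.77, adjusted p = 0.0423), and Cd8b1, its highest member, differed by 0.085 (adjusted p = 0.790). The part of CD8 T cells in the Runx3 difference was not tested. Rgs1, a regulator of G protein signalling, had a difference of -0.61 and missed the threshold (adjusted p = 0.0596).

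In the list of genes repressed by TGF-beta in T cells 1 of 15 rose, 1 fell and 13 did not pass, with a median of 0.11 and 7 at an unadjusted p under 0.05, where 14% of all genes were. Il12rb2, a chain of the interleukin 12 receptor, rose, at 5.52, 6.51, 6.16, 6.21 and 6.55 on LKB1-deficient arrays 1 to 5, against 5.39, 4.57, 5.26, 5.30 and 5.13 on WT arrays 1 to 5. Every LKB1-deficient array was above every WT array (1.06, SE 0.20, adjusted p = 0.0315), and the call held in 1 of 10 fits that left out 1 array, with the adjusted p at most 0.0828 in the others. Myc fell as given above and passed in 3 of those 10 fits (adjusted p up to 0.109). Without LKB1-deficient arrays 1, 4 and 5, the lowest of their group for Myc, its difference was -0.47 and the call was lost (adjusted p = 0.0557). Klrg1, a receptor of differentiated effector cells, had a difference of -0.82 and did not pass (adjusted p = 0.101). Its groups did not overlap but nearly touched, at 5.3946 on the highest LKB1-deficient array and 5.3963 on the lowest WT array. Without LKB1-deficient arrays 1, 4 and 5, the highest of their group, the Klrg1 difference was -1.31 (adjusted p = 0.0125). Prf1, perforin, had a difference of 0.56 (adjusted p = 0.152).

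**Figure D5:**
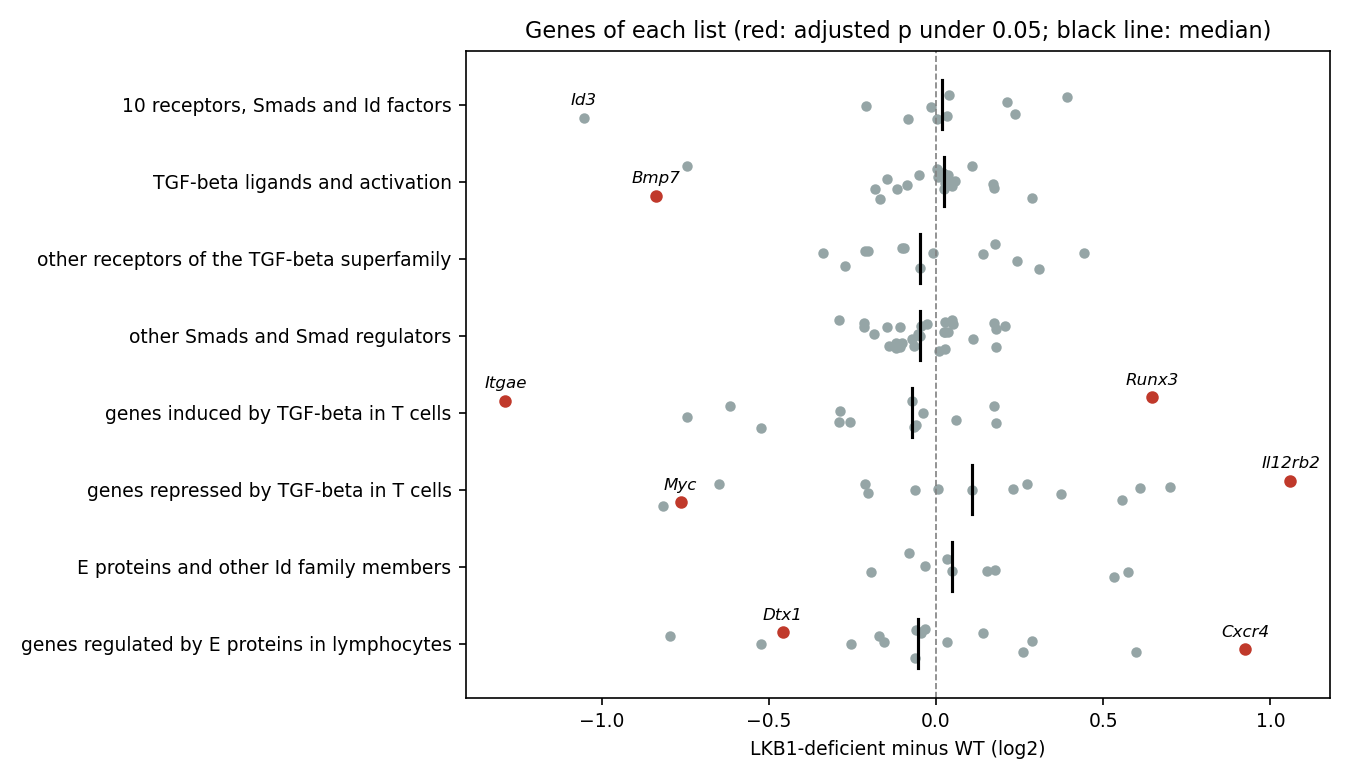
Log2 difference of each measured gene, LKB1-deficient minus WT, in the 10 genes described and in 7 lists of related genes, with 1 point a gene and the median of each list as a black line. Red points passed an adjusted p of 0.05 and are named; medians lie close to 0, and Id3 is named for its place among the 10 genes.

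The E proteins, the partners of the Id proteins, and the remaining Id genes were read from a list of 9 genes, of which 0 passed and 2 were at an unadjusted p under 0.05, with a median of 0.048. Tcf3, encoding E2A, differed by -0.032 (95% confidence interval -0.25 to 0.19) and Tcf12, encoding HEB, by 0.034 (-0.16 to 0.22). Tcf4, encoding the E protein E2-2 of plasmacytoid dendritic and B cells, was at 5.69, 5.47, 5.70, 6.36 and 6.02 on LKB1-deficient arrays 1 to 5, against 4.94, 5.34, 5.50, 5.31 and 5.50 on WT arrays 1 to 5. The difference of 0.53 did not pass (adjusted p = 0.157). Leaving out LKB1-deficient arrays 1, 4 and 5 gave 0.27 (adjusted p = 0.492). Hes1, a target of Notch, was at 6.03 and 6.34 on LKB1-deficient arrays 4 and 5, which were high in macrophage genes, with 4.97 to 5.22 for arrays 1 to 3, and it lay between 4.71 and 5.35 on WT arrays. The Hes1 difference was 0.57 (adjusted p = 0.329), and 0.066 (adjusted p = 0.911) without arrays 1, 4 and 5. Ezh2, a histone methyltransferase, and Lyl1, a helix-loop-helix factor of blood cells, had differences of -0.19 and 0.18 (adjusted p = 0.440 and 0.684). Id1 differed by 0.15 and Id4 by 0.048 (adjusted p = 0.720 and 0.883).

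Of 16 measured genes that E proteins regulate in lymphocytes, 1 rose, 1 fell and 14 did not pass, with a median of -0.053 and 6 at an unadjusted p under 0.05. Cxcr4, the receptor for the chemokine CXCL12, rose. Its signals were 9.0, 9.07, 9.07, 9.70 and 9.64 on LKB1-deficient arrays 1 to 5, against 8.25, 8.17, 8.59, 8.51 and 8.34 on WT arrays 1 to 5, with no overlap (0.93, SE 0.16, adjusted p = 0.0192). The Cxcr4 difference was 0.70 (adjusted p = 0.0322) without LKB1-deficient arrays 1, 4 and 5, and the call was lost without WT array 1, 2, 4 or 5 (adjusted p up to 0.0651). Dtx1, encoding the Notch regulator Deltex, fell by 0.46 on the log2 scale (SE 0.10, adjusted p = 0.0496). It was at 7.97 to 8.36 on LKB1-deficient arrays and 8.51 to 8.82 on WT arrays, and its call held in 1 of the 10 fits that left out 1 array. Over the mean of all its probe sets the Dtx1 difference was -0.75 (adjusted p = 0.0550). Leaving out LKB1-deficient arrays 1, 4 and 5 gave -0.57 for Dtx1, and the call was lost (adjusted p = 0.0541). Cxcr5, a homing receptor for the B cell follicle, was at 8.51, 7.29, 7.11, 7.76 and 7.43 on LKB1-deficient arrays, against 8.16, 8.45, 8.60, 8.68 and 8.18 on WT arrays. LKB1-deficient array 1, the highest of its group in Cxcr5, also had the highest mean of the B and plasma list, at 7.37. The part of other cells in these Cxcr5 signals was not tested. The Cxcr5 difference of -0.80 (SE 0.23) did not pass (adjusted p = 0.128). It passed without array 1 (-1.02, adjusted p = 0.00705) and without arrays 1, 4 and 5 (-1.21, adjusted p = 0.00867), and these were its highest LKB1-deficient arrays, so that leaving them out had to make the difference more negative. With all 10 arrays Cxcr5 passed with the marker list means as covariates (-1.20, adjusted p = 0.0113) and with array quality weights (-0.93, adjusted p = 0.0232). The B and plasma list mean, a covariate, was highest on LKB1-deficient arrays 1, 4 and 5, at 7.37, 7.09 and 7.30. The covariate fit is thus no separate check on leaving these arrays out. Quality weights can count deviating arrays less, and the weight of each array was not examined, so the weighted fit cannot settle this either. Il7r, the interleukin 7 receptor, was at 10.70, 9.55, 9.90, 10.28 and 10.48 on LKB1-deficient arrays, against 9.53 to 9.68 on WT arrays. The Il7r difference of 0.60 (adjusted p = 0.147) became 0.14 (adjusted p = 0.668) without LKB1-deficient arrays 1, 4 and 5.

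Over the 7 lists together, 3 of the 114 measured genes other than the 10 rose, where 0.234% of all genes did, and 4 fell, where 0.83% of all genes did. These shares held over all arrays and not within the second set of codes, where 423 of all genes were higher and 46 lower. Their median difference was -0.019. The lists were drawn up with earlier results of these data known, and the counts are no independent support.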

How the data were processed

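The deposited table holds, per the labels and values, 1 log2 signal for each of 41345 probe sets and 10 arrays of biotin-labelled cDNA. Per the submitters' processing notes the authors used RMA and Partek 6.6, with order, settings and build not given in the sources used here. RMA evens out the distributions of the arrays, which hides a shift common to all transcripts, and amplification of a few nanograms of RNA can distort levels. In the deposited values the medians over all probe sets still differed, at 4.88 to 4.94 on LKB1-deficient and 4.83 to 4.86 on WT arrays. Probe sets with exactly 1 symbol in the platform annotation (23521) were used, 1814 had several and 16010 none. The probe set with the highest mean stood for a gene. Groups came from sample titles. LKB1-deficient minus WT was fitted on all 10 arrays with no covariate (lmFit and eBayes of limma 3.58.1, under R 4.3.3), with Benjamini-Hochberg adjustment over 22180 genes. All adjusted p-values are from limma. The fit was tested on simulated data with the same spread in both groups. That differs from these arrays, so the test does not cover p-values under unequal spreads. The 10 genes, the 7 lists, the marker lists and the alternatives were chosen with earlier results of these data known. Genes named were Stk11, the 10, Foxp3, called genes and the 4 smallest p of each list, and the 3 profiles nearest to Id3. H2-Ab1, Lyz2, Nkg7 and Cd8b1 were named as the highest members of their marker lists, and those of the other marker lists are not given. Il2ra, Tgfb1, Lrrc32, Klrd1, Izumo1r, Pde3b, Cd8a, Tcf3, Tcf12, Id1 and Id4 were added afterwards, for their roles or their call. Same-numbered arrays of the 2 groups showed little joint deviation (r = -0.079 to 0.10, over 0.1 in 1 of 5 pairs). No pairing was used, though the labels do not say whether such arrays share a chimera. The number of arrays limits the precision.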

Additional observations from a re-analysis of the deposited data

Results flagged for a closer look

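An array far from the other 4 of its group (Dixon's criterion for 5 values) was found in 2 of 78 groups examined, a test by which chance marks about 1 in 20. Foxp3 was at 9.86 on LKB1-deficient array 1, against 11.10 to 11.50 on the other 4 LKB1-deficient arrays. Itgb8 was at 6.0 on the same array, against 7.19 to 7.52 on the other 4.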

How the results depend on the processing

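Of the 10 genes, 0 were called with all arrays, 1 (Id3) with the dimmest 40% of genes removed, array medians subtracted, a trended robust prior, array quality weights or code set 2 alone, and 0 to 1 with each array left out. Over all genes the count of 236 moved to 356, 415, 386, 464 and 469 under those 5 settings (in code set 2, 423 higher and 46 lower, against 52 and 184 with all arrays, and 40 genes shared), to 149 without moderation, 0 in code set 1 (limma, with 2247 at an unadjusted p under 0.05), 357 without LKB1-deficient arrays 1, 4 and 5, 25 at an adjusted p under 0.01, and 38 to 520 with each array left out. The 7 related genes called became 1 without moderation, 0 in code set 1, 3 in code set 2, 11 with the covariates, 1 at the stricter threshold and 1 to 9 with each array left out. A fit with the replicate number as a block called 0 of the 10, 50 of all and 2 related genes. Of the LKB1-deficient arrays 2 of 5 correlated best with their own number, at r = 0.031 and 0.10. Whether same-numbered samples came from the same chimera is not stated, and this check cannot settle it.

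Differences that changed sign, Id2 at 0.39 and Bmpr2 at -0.34 the largest, passed under no setting in which they had turned. Smad2 turned to -0.012 (medians subtracted), -0.046 (code set 2) with -0.026 to 0.080 over fits that left out 1 array, and Smad4 to -0.047 (medians), -0.0002 (weights) and -0.0050 (code set 1), with -0.040 to 0.030 over those fits. Smad7 turned to 0.021 (second quantile normalization), 0.026 (weights), 0.016 (code set 1), 0.16 (covariates), and 0.15 (without LKB1-deficient arrays 1, 4 and 5), with -0.084 to 0.058 over those fits. Ski turned to 0.048 and Id2 to -0.38 with the covariates, and to 0.028 and -0.36 without 3 arrays. Skil turned to -0.018 (medians), with -0.12 to 0.21 over those fits. Foxp3 turned to 0.12 (weights), 0.052 (code set 2), 0.37 (covariates), 0.36 (without 3 arrays), with -0.18 to 0.23 over those fits. Bmpr2 turned to 0.11 (code set 2), and Ldlrad4 to 0.024 and 0.0031 and Lyl1 to -0.14 and -0.16 with the covariates and without 3 arrays, and Lyl1 to -0.11 in code set 1. The cause of these changes was not tested.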
